A study of Mus musculus with 7 samples.

Results

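Imprinted genes were examined in sorted alpha cells of the mouse pancreas, which make the hormone glucagon, with and without the homeodomain transcription factor Nkx2-2. The set held 36 genes that are known to be imprinted in mice. They were chosen by symbol, with earlier results of these data known. All 36 were found among the 55536 genes of the count table. They lie in 17 imprinted domains, from the 5-gene Dlk1-Meg3 and Snrpn-Ube3a domains to single genes such as Plagl1. Of the 36, 15 are usually expressed from the maternal allele and 21 from the paternal allele.

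An imprinted gene is transcribed mainly from the allele inherited from 1 parent. DNA methylation that is laid down in the egg or sperm marks the alleles at an imprinting control region, and that mark is kept through development. Neighbouring imprinted genes often share 1 control region, and many domains pair a long noncoding RNA from one allele with protein-coding genes from the other. Several of these genes set growth, metabolic or endocrine functions. The counts used here add both alleles, so they give the level of a gene and carry no measurement of its imprint.

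Control cells came from Nkx2.2+/+;Gcg-iCre;Rosa26:tdTomato mice (4 libraries), and knockout (KO) cells from Nkx2.2fl/fl;Gcg-iCre;Rosa26:tdTomato mice (3 libraries). Both groups therefore carried the Cre recombinase driven by the glucagon gene and the tdTomato reporter, and tdTomato-positive islet cells of the C57BL/6J strain were collected by flow sorting. Libraries of total RNA were made with a strand-specific kit for very low inputs. Age, sex, pooling of animals and whether the samples of a group came from separate mice are not given in the labels, so the p-values measure only the spread between these samples, which may be technical.

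Library totals ran from 45483504 to 72456557 counts. For Nkx2-2 itself the controls had 8596, 11199, 12297 and 9782 normalized counts (counts divided by DESeq2 size factors) and the KO libraries 7758, 7534 and 7694 (log2 fold change -0.45, SE 0.13, DESeq2 adjusted p = 0.0244, edgeR adjusted p = 0.152). Without control 2, control 3 or any 1 of the KO libraries its DESeq2 adjusted p was above 0.05, at up to 0.155. The count spans all exons of Nkx2-2 and does not measure the recombined part alone. Of the 3 KO libraries, 1 has a column number, 4, that no KO title carries, and it is called the unnumbered KO library. Control 4 and this library stood apart from the rest and were the deepest of their groups. Control 4 had counts in 31024 genes, against 23150 to 25873 in the other 6. Of 24 genes whose exons are covered to 90% or more by exons on the other strand, 23 had less than 0.5 times the mean of the other controls in control 4, and 0 of 24 did so in the unnumbered KO library against KO 1 and 2. These genes were selected by a mean of at least 100 normalized counts over the libraries other than control 4 and the unnumbered KO library. Of 7940 genes selected in the same way without a gene on the other strand, 123 were below 0.5 times in control 4 and 95 in the unnumbered KO library. Both libraries are therefore named wherever they move a value below, and results are given with a model term for them. That term fits a shift shared by both libraries. It does not take up what was particular to control 4, such as the low values of these 23 genes.

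Plagl1 was the only one of the 36 genes that passed the threshold in DESeq2 and also in edgeR, and a promoter window of this gene is shown first. Windows of Zim1 and Peg3 stand beside it because they were the other 2 genes of the set whose KO libraries all lay above the controls. Each window runs from 250 bases before to 50 after a start site annotated by RefSeq on GRCm38.p6 and is written 5′ to 3′ on the strand of the gene. The windows are chr10:13090582-13090881 (plus strand) for Plagl1, chr7:6696383-6696682 (minus strand) for Zim1 and chr7:6730370-6730669 (minus strand) for Peg3. The Plagl1 window lies within the gene, whose annotated span begins at 13060504, and the gene counts do not separate its start sites. Capitals mark TGCCGC on either strand, the hexamer that the imprint-protecting zinc finger protein ZFP57 recognises when it is methylated. On the strand printed here, a match on the other strand reads GCGGCA.
Plagl1: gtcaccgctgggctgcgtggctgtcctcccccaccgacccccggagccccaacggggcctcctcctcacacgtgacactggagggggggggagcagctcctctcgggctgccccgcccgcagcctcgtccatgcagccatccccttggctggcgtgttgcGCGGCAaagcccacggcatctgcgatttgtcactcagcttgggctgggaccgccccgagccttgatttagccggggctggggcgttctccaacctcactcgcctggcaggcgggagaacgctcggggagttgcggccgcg
Zim1: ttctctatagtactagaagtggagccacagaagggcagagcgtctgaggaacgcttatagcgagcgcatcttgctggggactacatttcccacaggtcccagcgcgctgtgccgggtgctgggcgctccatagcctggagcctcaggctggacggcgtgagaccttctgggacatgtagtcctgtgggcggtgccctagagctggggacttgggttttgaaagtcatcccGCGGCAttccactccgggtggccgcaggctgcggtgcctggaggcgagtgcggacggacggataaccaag
Peg3: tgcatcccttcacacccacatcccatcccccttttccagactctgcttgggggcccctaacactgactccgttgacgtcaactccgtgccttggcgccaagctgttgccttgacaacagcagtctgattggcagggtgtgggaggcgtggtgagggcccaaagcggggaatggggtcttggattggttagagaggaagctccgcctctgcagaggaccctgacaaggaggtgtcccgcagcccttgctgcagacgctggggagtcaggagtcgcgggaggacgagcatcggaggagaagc
The Plagl1 window held 26 CpG dinucleotides and 1 hexamer, the Zim1 window 20 and 1, and the Peg3 window 13 and none. The core AAGTG of the NKX2 family, searched on both strands, was found once in the Zim1 window and not in the other 2. Over 41 such windows of 28 imprinted genes, 24.4% held TGCCGC and 51.2% held AAGTG. Over 32841 windows of 27018 genes of the same length, the shares were 11.6% and 46.4%. Windows were counted separately even where they overlap, as do a pair of Mest windows with the same hexamers and the windows of Peg3 and Usp29. The shares are therefore of windows and not of genes. The median GC content was 55.3% in the windows of the imprinted genes and 52.7% in all windows, with medians of 13 and 7 CpG dinucleotides, so CpG content moved with the hexamer, which contains a CpG, and its part in these shares was not tested. A match is a description of letters, not a bound site, and no match says only that those letters are absent from this window. Windows for Cdkn1c, H19, Impact, Peg10, Sgce, Rtl1, Trappc9 and Peg13 were not used here.

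The sorted control cells held transcripts of most of these genes, and Peg3 outweighed all others. A total of 31 imprinted genes had a mean of at least 100 normalized counts over the 7 libraries, and 5 were below that (Magel2, Igf2, Mkrn3, Phlda2 and H19). Per kilobase of exon, which allows levels of different genes to be compared, Peg3 reached 17189 ± 1908 normalized counts (SD, n = 4) in controls and ranked 56 among the 33449 genes with a count in any control. Meg3 followed at 2914 ± 1137 (SD, n = 4), so that the level of Peg3 per kilobase was 5.90-fold that of Meg3. Next came Grb10 at 1471 ± 122, Zim1 at 1379 ± 293 and Zdbf2 at 1344 ± 41.6, whose order lay within the spread between libraries. Igf2r at 1081 ± 62.4, Ndn at 1023 ± 279, Rian at 937 ± 121, Peg10 at 930 ± 288 and Impact at 759 ± 80.8 completed the 10 highest. From Igf2r to Peg10 neighbours in that order differed by less than the larger of their SDs, while Igf2r lay below Zdbf2 by more than the SD of either gene, and Impact lay below Peg10 by more than its own SD but less than that of Peg10. The other 21 genes above the mean of 100 ran from Peg13 at 743 down to Dlk1 at 33.2 normalized counts per kilobase. On the same scale the hormone genes Ppy (gamma cells), Sst (delta cells) and Ins2 (beta cells) ranked 6, 11 and 13 in controls. The part of other islet cell types in the levels of the imprinted genes was not tested.

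**Figure D1:**
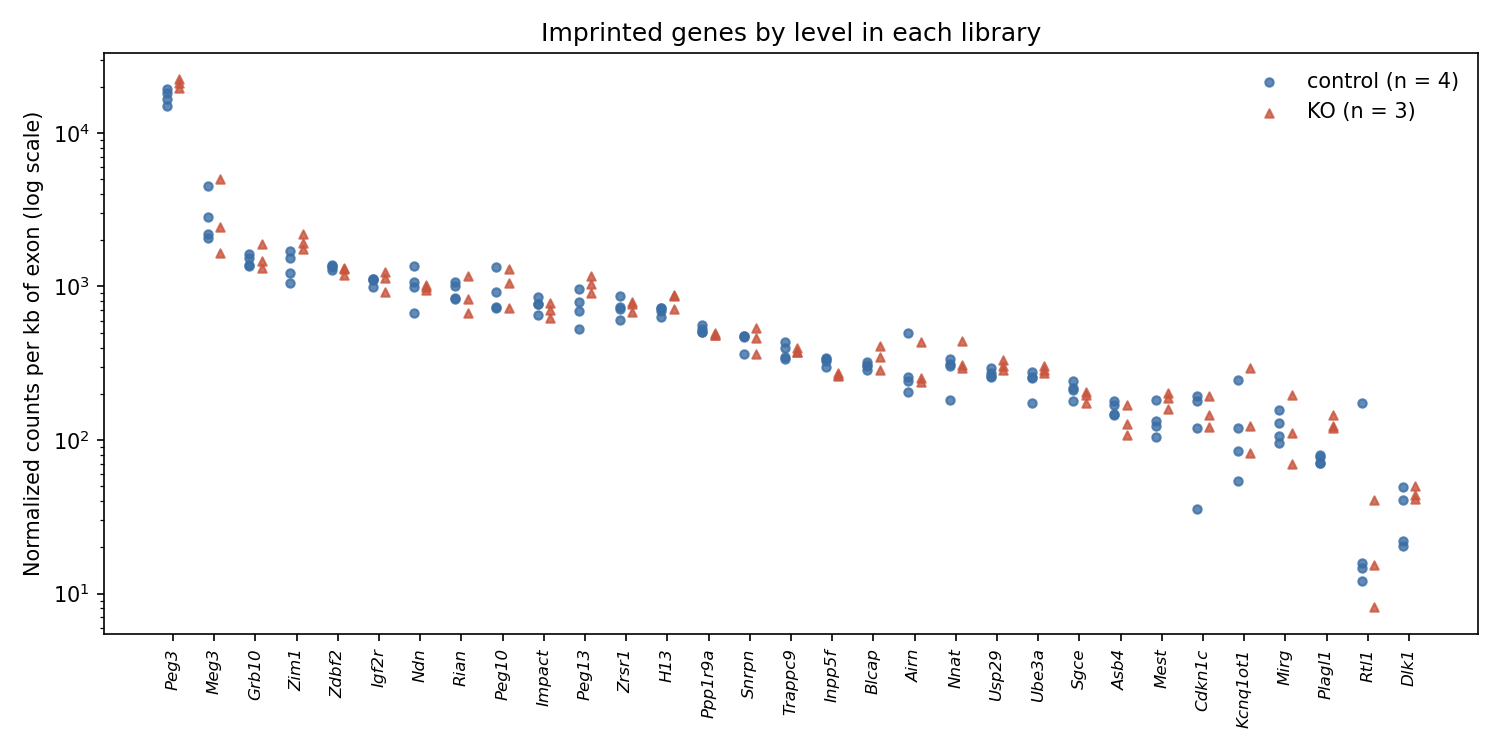
Normalized counts per kilobase of exon (vertical axis, log scale) of the 31 imprinted genes with a mean of at least 100 normalized counts, 1 point per library (circles: 4 controls; triangles: 3 KO), ordered by the control mean. Peg3 stands above every other gene in all 7 libraries, and the spread between libraries is widest for Rtl1, Kcnq1ot1, Meg3 and Cdkn1c.

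As a share of each library, the 36 genes took 0.607% to 1.11% of all counts. Peg3 and Meg3 alone held 65.1% to 69.3% of the counts of the set in every library. H19 had 0 to 2 counts in the controls and 0 to 5 in the KO libraries, and Phlda2 had 4 counts in control 2 and 0 elsewhere, close to the floor of 3 counts below which a level cannot be told from 0. Mkrn3 had 2 to 10 counts in the controls and 0 to 14 in the KO libraries. Igf2, the fetal growth factor, had 8 to 34 counts in the controls and 24 to 36 in the KO libraries. Exons of Gm49394 on the same strand share 62.8% of the exon length of Igf2, so reads there cannot be assigned to either gene with certainty. Magel2 had 11 to 36 and 26 to 86.

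The comparison of KO with control asked which imprinted genes change when Nkx2-2 is removed from alpha cells. Of the 36 genes Plagl1 rose, and none fell past the threshold. Zim1, Peg3 and Peg13 had higher means in KO libraries and Inpp5f a lower one, none past the threshold in this fit. Each was past it in some of the other DESeq2 fits and in no edgeR fit. Meg3 was called lower in the DESeq2 fit with a replicate block by label number. The long noncoding RNAs of the Dlk1-Meg3, Kcnq1 and Igf2r-Airn domains varied more between libraries of 1 group than between the groups.

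DESeq2 gave 32 of the 36 genes an adjusted p-value, and 1 of these, 3.12%, was under 0.05. Over all genes the share was 3.9% (769 of 19719, with 386 higher and 383 lower), so the count in the imprinted set was near the background. The edgeR quasi-likelihood test also called 1 of 33, against 1.05% of all genes (203 of 19310, 78 higher and 125 lower). At an unadjusted p under 0.05 stood 7 of the 32 genes, while 11.3% of all genes did. In 5 of the 32, all KO libraries lay to 1 side of all controls, against 11.4% of all genes. These were Peg3, Zim1 and Plagl1, which were higher, and Inpp5f and Ppp1r9a, which were lower. The median log2 fold change of the 32 was 0.11 with 24 values above 0 and 8 below, beside a median of 0.01 and 51.2% above 0 for all genes. When libraries were scaled to their totals instead, the median of all genes shifted by 0.10, calls over all genes became 695 higher and 298 lower, and Rian, Ndn and Zdbf2 turned from below to above 0. The 13 tested genes usually expressed from the maternal allele had a median of 0.05 with 10 values above 0 and 0 called (2 at an unadjusted p under 0.05, and 0 in edgeR), and the 19 from the paternal allele had a median of 0.17 with 14 above 0 and 1 called. The difference between these classes was not tested.

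**Figure D2:**
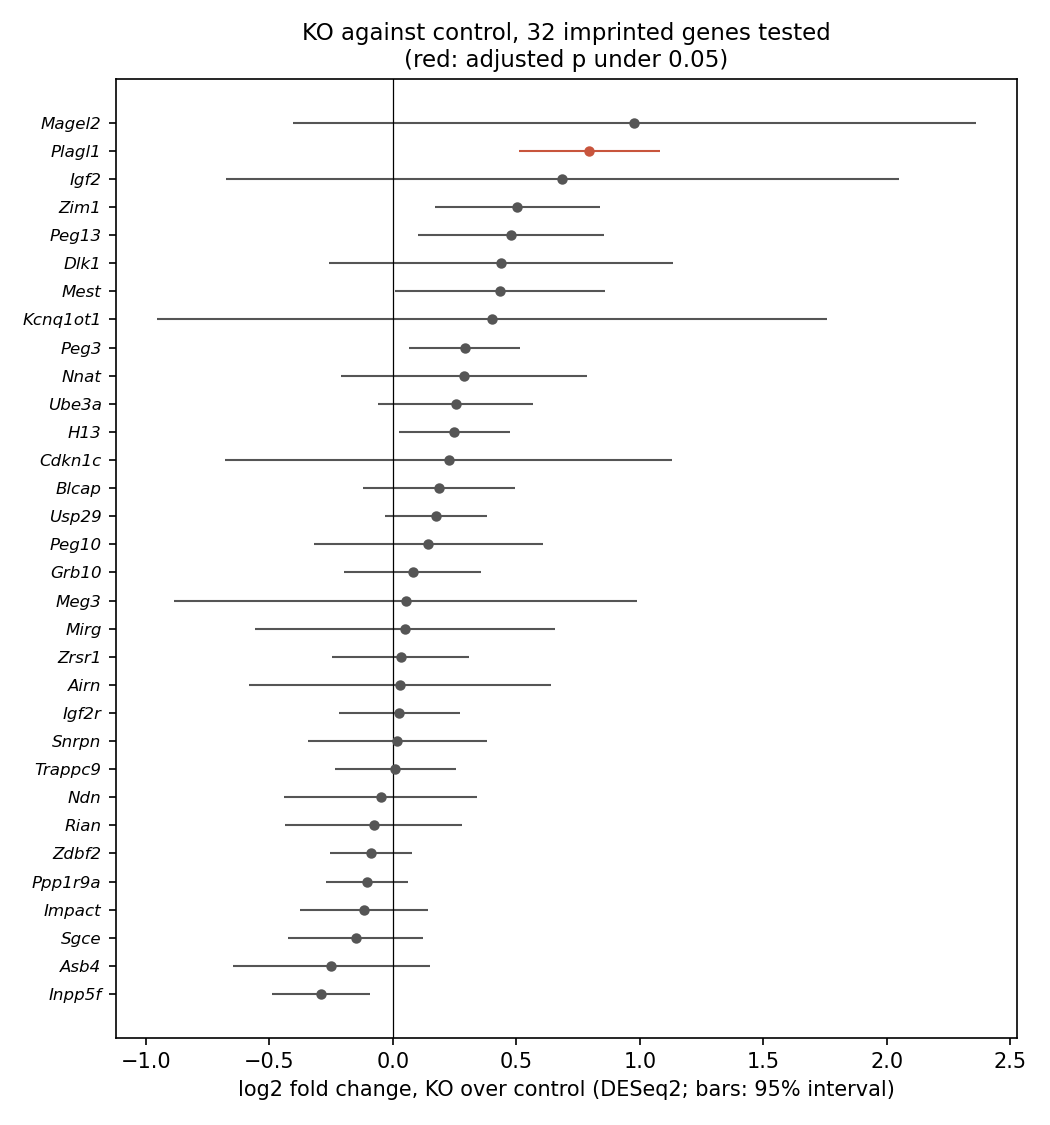
DESeq2 log2 fold changes, KO over control (horizontal axis), of the 32 imprinted genes with an adjusted p-value, with 95% intervals as bars. Plagl1 (red) is the single gene with an adjusted p under 0.05, and the intervals of Zim1, Peg13, Peg3, H13, Mest and Inpp5f also exclude 0.

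With a term for control 4 and the unnumbered KO library in the model, DESeq2 called 5 of 33 imprinted genes, of which Plagl1, Zim1, Peg13 and Peg3 were higher and Inpp5f was lower. The background in that fit was 7.1% of all genes (1371 of 19299). The edgeR test with the same term called Plagl1 alone of 33, against a background of 3.53% (681 of 19310). The columns numbered 1, 2 and 4 occur in both groups, and a fit on these 6 libraries with the number as a block was added after the data were seen. In DESeq2 it called 4 of 33, Plagl1, Zim1, Peg3 and Peg13, all higher, against 5.04% of all genes (1000 of 19839). In edgeR it called Plagl1 alone of 33, against 1.66% (317 of 19085).

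Plagl1 (ENSMUSG00000019817, GRCm38 chromosome 10, 13060504 to 13131694, plus strand) encodes a zinc finger transcription factor with growth-restraining activity, expressed from the paternal allele. Excess expression of its human counterpart is a known cause of transient neonatal diabetes. Controls 1 to 4 had 554, 607, 620 and 553 normalized counts of Plagl1. The KO libraries, in the order KO 1, KO 2 and unnumbered that is kept below, had 934, 963 and 1138. All 3 KO libraries lay well above all 4 controls, and the controls spanned a narrow range. The means were 583 ± 35.2 (SD, n = 4) and 1011 ± 110 (SD, n = 3), so Plagl1 rose 1.74-fold (log2 fold change 0.80, SE 0.15, 95% interval 0.51 to 1.08). The adjusted p was 7.41e-06 in DESeq2 and 0.0229 in edgeR. With the term for the libraries numbered 4 the adjusted p was 3.65e-06 in DESeq2 and 0.00951 in edgeR. Plagl1 stayed past the DESeq2 threshold in all 7 fits that left out 1 library, with log2 fold changes from 0.70 to 0.85 and adjusted p-values up to 0.00287. Only 0.486% of its exon length lies under an exon of the opposite strand. At 74.6 ± 4.50 normalized counts per kilobase in controls it was among the least abundant of the 31 expressed genes, ranked 11564 of 33449.

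Markers of the islet cell types moved together with this change. Of 8 alpha cell marker genes 6 were lower in KO libraries in DESeq2 and 3 were called in edgeR. Glucagon (Gcg) had a log2 fold change of -1.04 and adjusted p-values of 7.58e-10 in DESeq2 and 0.175 in edgeR, and the summed normalized counts of the list were 6417122 to 8411910 in controls and 2925132 to 4240504 in KO libraries. Ppy, the hormone of gamma cells, was higher in both tools, at 178540 to 401493 in controls and 615185 to 783711 in KO libraries. Of 8 beta cell markers 1 was higher (Iapp), with sums of 333932 to 684159 and 524774 to 965437. With the term for the libraries numbered 4, DESeq2 called 6 of the 8 higher. Of 3 delta cell markers 1 was higher (Rbp4), with sums of 196046 to 398527 and 354922 to 631739. Duct markers (1 of 3 higher, Spp1) summed to 800 to 1284 and 1492 to 2443, and leukocyte markers (1 of 4 lower, C1qa) to 860 to 1401 and 589 to 741. In edgeR without that term 0 of the beta, delta, duct and leukocyte markers were called, and Iapp, Rbp4, Spp1 and C1qa had adjusted p-values of 0.153, 0.0761, 0.146 and 0.140. None of 5 acinar, 6 mesenchymal, 4 endothelial and 3 Schwann cell markers was called by DESeq2 or edgeR, and 1 endothelial and 1 Schwann cell marker had an unadjusted DESeq2 p under 0.05. The sums of these lists were 134 to 9504 and 807 to 4697 for acinar, 1346 to 3796 and 2172 to 4003 for mesenchymal, 163 to 224 and 111 to 713 for endothelial, and 471 to 645 and 434 to 642 for Schwann cell markers. Of all these markers Pdgfra (mesenchymal), Ptprc and Lyz2 (leukocyte) were at 0 in 2 libraries each, and the rest had counts in every library. Their part in the values of Plagl1 and of the other imprinted genes was not tested. In sorted bulk cells, fewer cells of a type and less RNA per cell cannot be told apart.

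In the Peg3 domain on chromosome 7, Zim1 and Peg3 were higher in every KO library than in any control. Peg3 (6703892 to 6730431, minus strand) encodes a large zinc finger protein expressed from the paternal allele. Usp29 starts 147 bases from Peg3 on the other strand and encodes a protein of the ubiquitin protease family, also from the paternal allele. Zim1 (6671269 to 6696450, minus strand) is a zinc finger gene that is usually expressed from the maternal allele, and its start lies 7442 bases beyond the end of Peg3.

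For Zim1 the controls had 9908, 12362, 8546 and 13801 normalized counts. The KO libraries had 14102, 15616 and 17747. The groups did not overlap, but control 4 and KO 1 were close. The means were 11154 ± 2368 (SD, n = 4) and 15822 ± 1831 (SD, n = 3), with a log2 fold change of 0.50 (SE 0.17). The adjusted p was 0.0686 in DESeq2 and 0.276 in edgeR, so the difference did not pass the threshold. It did pass in DESeq2 without control 4 (adjusted p = 0.000833), without control 2 (0.0476) and with the term for the libraries numbered 4 (0.00128), where edgeR gave 0.0717. With the block of 3 numbered pairs the adjusted p of Zim1 was 2.47e-05 in DESeq2 and 0.0651 in edgeR. Across the fits that left out 1 library the log2 fold change of Zim1 lay between 0.39 and 0.62.

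For Peg3 the controls had 220158, 256591, 198174 and 241191 normalized counts. The KO libraries had 262259, 297310 and 280497. Again the groups did not overlap, with control 2 just below KO 1. The means were 229028 ± 25418 (SD, n = 4) and 280022 ± 17530 (SD, n = 3), with a log2 fold change of 0.29 (SE 0.11) and adjusted p-values of 0.174 in DESeq2 and 0.626 in edgeR. With the term for the libraries numbered 4 the adjusted p was 0.0416 in DESeq2 and 0.315 in edgeR. With the block of 3 numbered pairs the log2 fold change of Peg3 was 0.23, and the adjusted p was 0.00774 in DESeq2 and 0.455 in edgeR.

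Usp29 had normalized counts of 5358, 4971, 4625 and 4695 in controls and of 5165, 6010 and 5452 in the KO libraries. Here the groups overlapped, since control 1 lay above KO 1. For Usp29 the log2 fold change was 0.17 (SE 0.11, DESeq2 adjusted p = 0.631), and 14.3% of the exon length of Usp29 lies under exons of Zim3 on the other strand. The 3 neighbours thus had positive log2 fold changes, as did 24 of the 32 imprinted genes tested. The plot of normalized counts by library shows this domain beside Plagl1, Peg13 and Inpp5f.

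**Figure D3:**
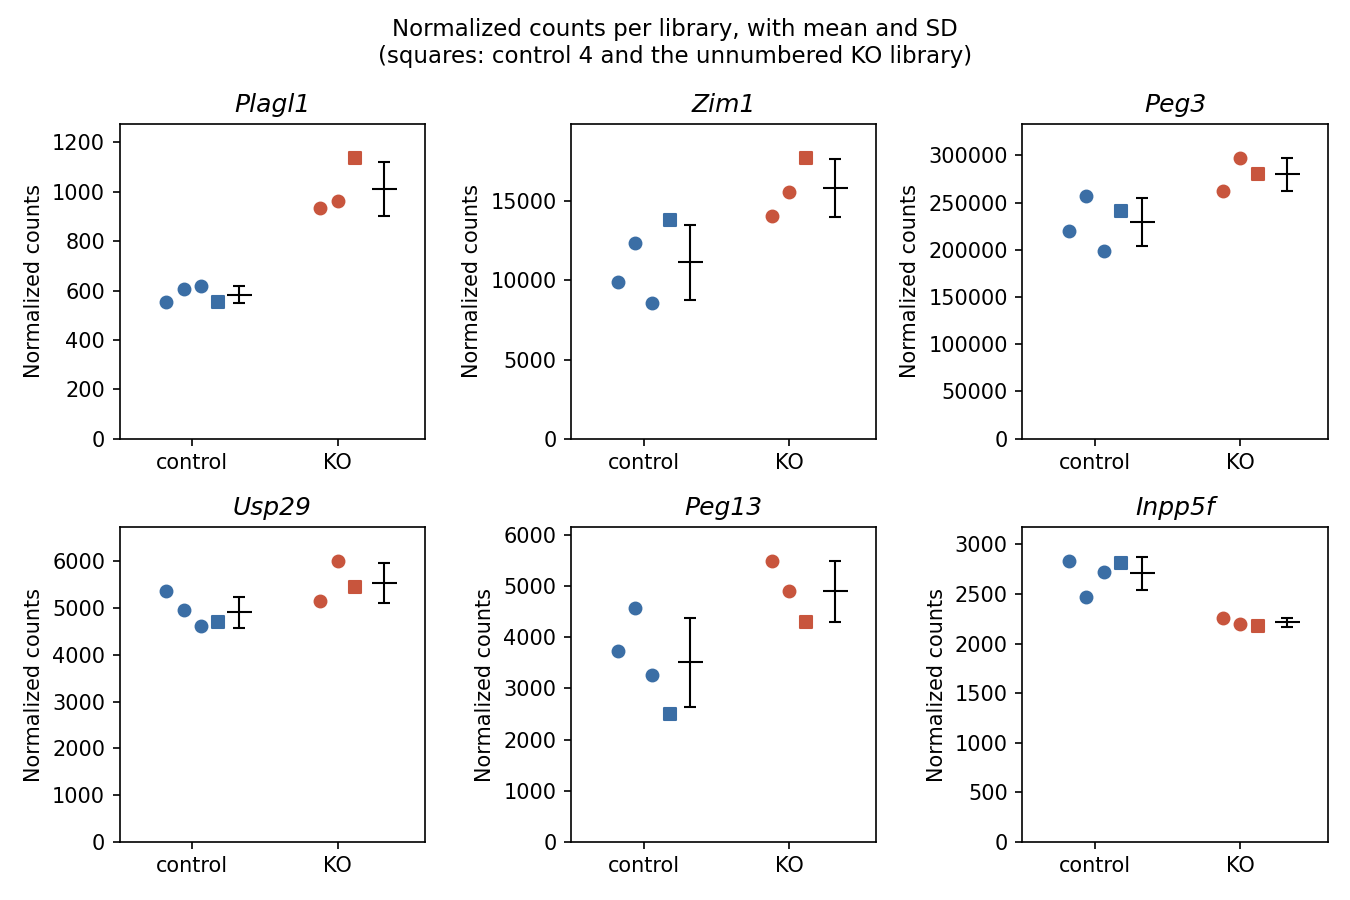
Normalized counts (vertical axes, from 0) of 6 imprinted genes in 4 control (blue) and 3 KO (red) libraries, 1 point per library, with mean and SD as bars; squares mark control 4 and the unnumbered KO library. The KO points lie above all control points for Plagl1, Zim1 and Peg3 and below them for Inpp5f, and they overlap for Usp29 and Peg13.

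Peg13, a noncoding RNA transcribed from the paternal allele within an intron of Trappc9, had normalized counts of 3730, 4567, 3258 and 2492 in controls and of 5486, 4905 and 4291 in KO libraries. Control 2 lay above the lowest KO library and the other controls lay below all 3. Within both groups the library numbered 4 was the lowest. Peg13 had a log2 fold change of 0.48 (SE 0.19) and adjusted p-values of 0.189 in DESeq2 and 0.381 in edgeR. The DESeq2 adjusted p was 0.0118 without control 2 and 0.00102 with the term for the libraries numbered 4, where edgeR gave 0.0558. With the block of 3 numbered pairs it was 0.0242 in DESeq2 and 0.18 in edgeR. Trappc9, its host gene and a subunit of a vesicle tethering complex, had a log2 fold change of 0.01 (SE 0.12), with means of 3007 ± 358 (SD, n = 4) and 3029 ± 108 (SD, n = 3) and libraries that overlapped.

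Inpp5f, a phosphoinositide phosphatase gene of which an internal transcript is the imprinted product, had normalized counts of 2832, 2473, 2721 and 2808 in controls. The KO libraries had 2260, 2200 and 2177, all below the lowest control and close to each other. Inpp5f had a log2 fold change of -0.29 (SE 0.10) and adjusted p-values of 0.0805 in DESeq2 and 0.196 in edgeR. It passed in DESeq2 with the term for the libraries numbered 4 (0.0309) and with the stricter filter of at least 10 counts in 3 libraries (0.0409). The gene count does not separate the imprinted transcript from the others.

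Ppp1r9a, which encodes the actin-binding scaffold neurabin, was the other gene whose KO libraries were all lower. Its normalized counts were 7621, 7303, 7377 and 8114 in controls and 7063, 6969 and 7193 in KO libraries. The distance between the groups was small, with a log2 fold change of -0.10 (SE 0.08) and a DESeq2 adjusted p of 0.848.

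In the Dlk1-Meg3 domain on chromosome 12, 0 of 4 genes tested by DESeq2 and 0 of 5 by edgeR passed the threshold, and 0 had an unadjusted DESeq2 p under 0.05. Its noncoding RNAs differed mainly between libraries. Meg3, Rian and Mirg are noncoding RNAs from the maternal allele that carry many microRNAs and small nucleolar RNAs. Meg3 had normalized counts of 51259, 39966, 37399 and 82205 in controls and of 43910, 30089 and 89983 in KO libraries. Control 4 was 1.92-fold the mean of the other controls, and the unnumbered KO library 2.43-fold the mean of the other KO libraries. The log2 fold change was 0.05 (SE 0.48, 95% interval -0.89 to 0.99). It was -0.21 without both of those libraries, and -0.11 with a term for them. DESeq2 called Meg3 lower in the fit with a replicate block by label number, which holds neither of those libraries. That block was not run in edgeR.

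Rian had normalized counts of 18321, 15415, 15049 and 19545 in controls and of 15130, 12181 and 21269 in KO libraries. Mirg had 945, 696, 770 and 1143 in controls and 810, 511 and 1437 in KO libraries. In both genes the library numbered 4 was the highest of its group, and the groups overlapped fully. The log2 fold changes were -0.08 (SE 0.18) for Rian and 0.05 (SE 0.31) for Mirg, and that of Mirg was -0.29 without both libraries numbered 4.

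Dlk1 encodes a membrane protein related to Notch ligands and is expressed from the paternal allele. It had normalized counts of 231, 280, 115 and 125 in controls and of 232, 248 and 282 in KO libraries. Controls 3 and 4 were the 2 low libraries, and the rest overlapped. Dlk1 had a log2 fold change of 0.44 (SE 0.35, DESeq2 adjusted p = 0.844).

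Rtl1, a protein-coding gene derived from a retrotransposon, is transcribed from the paternal allele on the minus strand, opposite 6 microRNA genes of the maternal strand that lie within its exons. Their mature sequences are shown because small RNA from that strand is processed from transcripts that pair with Rtl1 along its exon. Total RNA libraries of this kind measure the longer transcripts and give no level of a mature microRNA. The sequences are those of RefSeq on GRCm38.p6, 1 arm per hairpin, with the seed (bases 2 to 8) in capitals.
mmu-miR-431-5p: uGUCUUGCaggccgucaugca
mmu-miR-433-3p: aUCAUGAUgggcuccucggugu
mmu-miR-127-3p: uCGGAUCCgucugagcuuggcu
mmu-miR-434-3p: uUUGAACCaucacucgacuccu
mmu-miR-432: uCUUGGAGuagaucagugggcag
mmu-miR-136-5p: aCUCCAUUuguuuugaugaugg
The 6 seeds all differ, and the hairpins together cover 8.12% of the Rtl1 exon length. Rtl1 had 68, 79, 77 and 1529 deposited counts in controls and 99, 50 and 351 in KO libraries. Control 4 stood 12.2-fold above the mean of the other controls after normalization, and the unnumbered KO library 3.50-fold above the other KO libraries. DESeq2 gave no p-value because control 4 exceeded its Cook's distance limit, and edgeR gave an adjusted p of 0.799.

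The hairpins on the opposite strand summed to 116, 100, 80 and 0 counts in the controls and to 110, 74 and 523 in the KO libraries. All 6 were at 0 in control 4, where Rtl1 was highest, while in the unnumbered KO library both strands were high. Mir433 had the most counts, with 40, 39, 38 and 0 in controls and 57, 24 and 247 in KO libraries. These values share the pattern of control 4 given above for genes covered by the other strand, and the part of the strand setting of the counting, which is not given in the sources used here, was not tested. The plot of both strands of Rtl1 gives these counts.

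**Figure D4:**
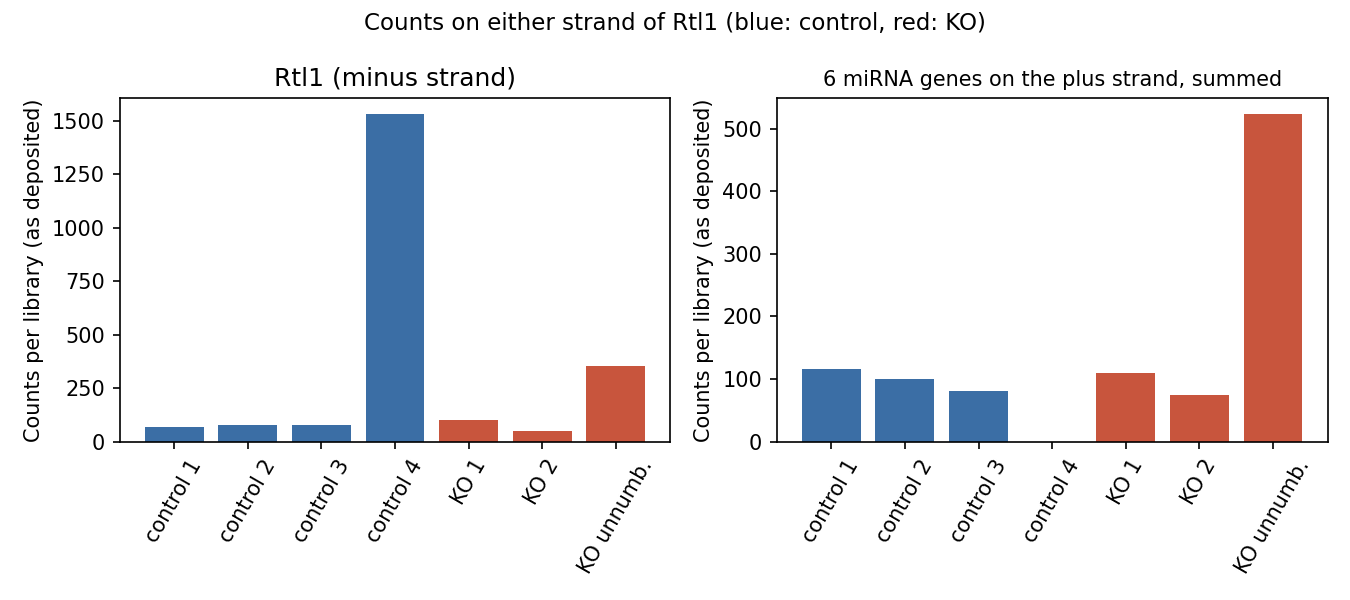
Counts as deposited (vertical axes, from 0) of Rtl1 on the minus strand and of the 6 microRNA genes in its exon on the plus strand, summed, in each of the 7 libraries (blue: control, red: KO). Control 4 has 1529 counts of Rtl1 and 0 of the microRNA genes, and the unnumbered KO library has 351 and 523.

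In the Kcnq1 domain on chromosome 7, Kcnq1ot1 is the long noncoding RNA of the paternal allele, transcribed antisense within Kcnq1 and known for silencing its neighbours in cis. It had normalized counts of 11117, 7882, 5036 and 22784 in controls and of 11497, 7707 and 27206 in KO libraries. The libraries numbered 4 were 2.84-fold and 2.83-fold the mean of the others of their groups. The log2 fold change was 0.40 (SE 0.69, 95% interval -0.95 to 1.76). Leaving out the unnumbered KO library turned it to -0.29, and leaving out control 4 raised it to 0.95.

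Cdkn1c, a cyclin-dependent kinase inhibitor of the maternal allele that Kcnq1ot1 is known to silence, had normalized counts of 243, 368, 392 and 72.3 in controls and of 298, 397 and 247 in KO libraries. Control 4 was the low library, at 0.216-fold the mean of the other controls, and 30.7% of the exon length of Cdkn1c lies under an antisense gene. Its estimate was 0.23 on the log2 scale (SE 0.46), and -0.09 without control 4.

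Igf2r, the maternally expressed receptor that clears insulin-like growth factor 2, had normalized counts of 10412, 10218, 9198 and 10410 in controls and of 10501, 11638 and 8571 in KO libraries. The KO libraries spread to both sides of the controls, and the log2 fold change was 0.03 (SE 0.13). Airn, the paternal antisense RNA that starts within Igf2r, had 869, 924, 741 and 1800 in controls and 853, 910 and 1556 in KO libraries. The libraries numbered 4 were again the highest of each group, and the log2 fold change of Airn was 0.03 (SE 0.31).

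The 7 genes listed as nuclear or antisense RNAs (Meg3, Rian, Mirg, Airn, Kcnq1ot1, Peg13 and Usp29) did not behave alike. The list is not complete by position, since the exons of Nnat, Ndn and Zrsr1 also lie wholly within genes of the opposite strand and Rtl1 lies opposite microRNA genes, and these 4 are counted among the others here. The exons of Magel2 lie so too, but its mean was below 100 and it is not counted in either group. Peg13 is on the list although no part of its exons lies within a gene of the opposite strand. In 5 of the 7, the library numbered 4 was the highest of its group in controls, and the same held in KO libraries. Peg13 and Usp29 were the exceptions. Control 4 was the highest control in 4 of the 24 other members with a mean of at least 100 and in 3410 of 12712 genes at that level. For the unnumbered KO library the counts were 8 of 24 and 4238 of 12712. The median fold of control 4 over the other controls was 1.42 for the 7, 0.970 for the 24 other members with a mean of at least 100 and 0.936 for 12712 genes at that level. For the unnumbered KO library the medians were 1.77, 0.976 and 0.957. Malat1, a nuclear RNA outside the set, was 1.69-fold and 2.29-fold the mean of the others. The list was chosen with these values known, and the part of nuclear RNA content in the differences was not tested. Between the groups 0 of the 7 were called by DESeq2 or edgeR, and 1 (Peg13) had an unadjusted p under 0.05 in DESeq2.

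**Figure D5:**
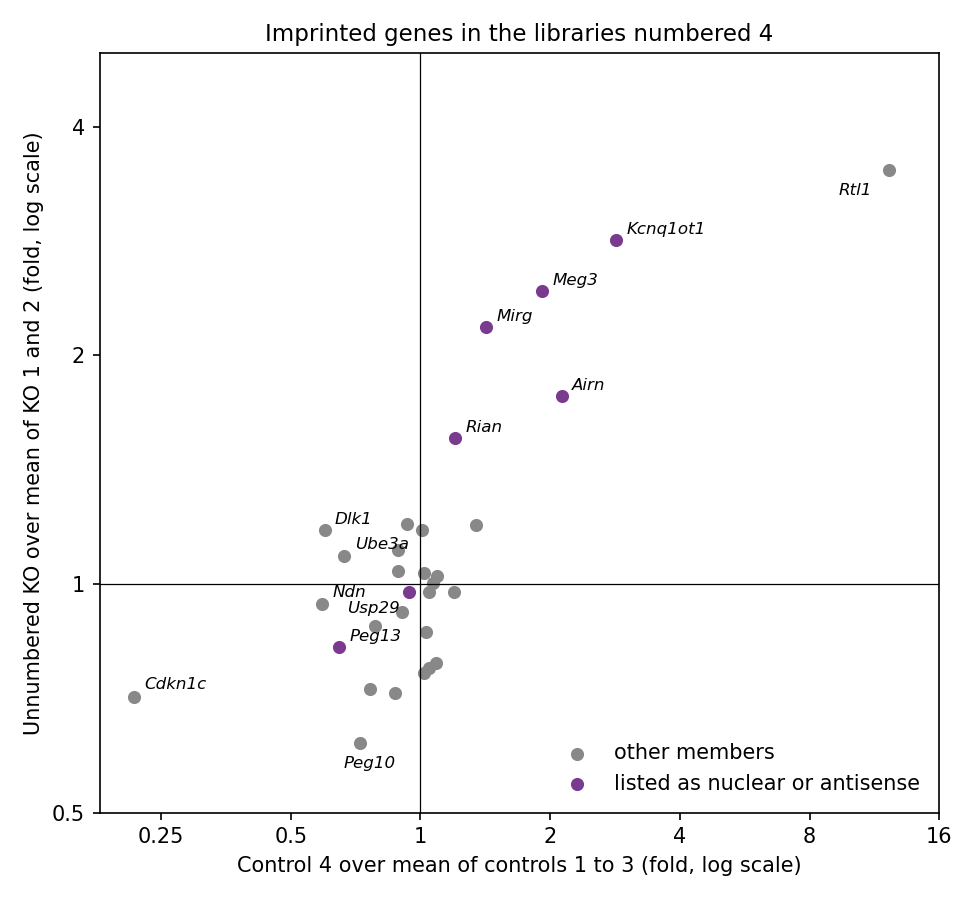
Fold of control 4 over the mean of controls 1 to 3 (horizontal axis, log scale) against fold of the unnumbered KO library over the mean of KO 1 and 2 (vertical axis, log scale), 1 point for each of the 31 imprinted genes with a mean of at least 100 normalized counts; purple points are the 7 members listed as nuclear or antisense. Kcnq1ot1, Meg3, Mirg, Airn and Rian lie above 1 on both axes, as does Rtl1 at 12.2 and 3.50.

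In the Snrpn-Ube3a domain 0 of 4 tested genes passed the threshold in DESeq2 or edgeR or had an unadjusted DESeq2 p under 0.05. Ndn, a MAGE family gene of the paternal allele, had normalized counts of 3678, 4991, 3966 and 2486 in controls and of 3782, 3666 and 3509 in KO libraries. All KO libraries lay within the range of the controls, with a log2 fold change of -0.05 (SE 0.20), which became 0.06 when libraries were scaled to their totals. Snrpn, a spliceosome component, had means of 962 ± 122 (SD, n = 4) and 974 ± 187 (SD, n = 3) and a log2 fold change of 0.02, and 27.3% of its exon length is shared with Gm38393 on the same strand. Ube3a, the ubiquitin ligase of the maternal allele in neurons, ranged from 3606 to 5756 in controls and from 5615 to 6259 in KO libraries, with control 4 lowest and a log2 fold change of 0.25 (SE 0.16). Exons of the opposite strand cover 27.3% of its exon length. Of the 32 genes with an adjusted p, Magel2 had the log2 fold change farthest from 0, at 0.98, with an SE of 0.71 at a mean of 24.5 normalized counts in controls.

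Peg10 and Sgce start 99 bases apart on chromosome 6 and are both expressed from the paternal allele. Peg10, another gene derived from a retrotransposon, had normalized counts of 8942, 4932, 6100 and 4815 in controls and of 7034, 8668 and 4843 in KO libraries. The range was nearly the same in both groups, with the libraries numbered 4 lowest in each. Its log2 fold change was 0.14 (SE 0.24). Sgce, which encodes a sarcoglycan, had -0.15 (SE 0.14), and Asb4, a ubiquitin ligase subunit of the maternal allele in the same domain, had -0.25 (SE 0.20).

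Grb10, an adaptor that restrains insulin and growth factor receptor signalling, had normalized counts of 14697, 13889, 12477 and 12431 in controls and of 11909, 17163 and 13370 in KO libraries. The KO libraries held both the lowest and the highest value, and the log2 fold change was 0.08 (SE 0.14). Zdbf2 had 17478, 17060, 16271 and 17265 in controls and 14947, 16713 and 16345 in KO libraries, with 2 of the KO libraries within the control range and a log2 fold change of -0.09 (SE 0.08). Impact, a regulator of the amino acid sensing kinase GCN2, had 3935, 3357, 4368 and 3916 in controls and 3599, 3176 and 3984 in KO libraries, and the groups overlapped at a log2 fold change of -0.12 (SE 0.13).

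H13, a maternally expressed intramembrane protease, and Mest, a paternally expressed hydrolase family gene, had unadjusted p-values of 0.0302 and 0.0461 and DESeq2 adjusted p-values of 0.326 and 0.422. H13 ranged from 5619 to 6446 normalized counts in controls and from 6371 to 7828 in KO libraries, at a log2 fold change of 0.25 (SE 0.11). Mest ranged from 413 to 717 and from 631 to 796, at a log2 fold change of 0.43 (SE 0.22). Both overlapped between groups, and 23.1% of the exon length of Mest lies under Copg2. Nnat and Blcap, a gene pair on chromosome 2 in which Nnat lies within an intron of Blcap, had log2 fold changes of 0.29 (SE 0.25) and 0.19 (SE 0.16). Zrsr1, a splicing factor gene, had 0.03 (SE 0.14), and Igf2 had 0.69 (SE 0.70) at 17.5 normalized counts in controls.

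Beyond the set, 43 further imprinted genes and 25 genes that set or read imprints were examined in the same fit. Of the further imprinted genes 30 were tested, of which 1 was higher and 1 lower, or 6.67%, beside 3.9% of all genes. Slc38a4, an amino acid transporter of the paternal allele, fell. It had normalized counts of 12288, 9973, 11830 and 10176 in controls and of 7302, 6572 and 6834 in KO libraries, all 3 below the lowest control. Its log2 fold change was -0.68 (SE 0.11), with adjusted p-values of 4.23e-07 in DESeq2 and 0.0269 in edgeR. Gab1, a docking protein of receptor tyrosine kinases, had 1982, 2267, 2145 and 1987 in controls and 2905, 2952 and 2594 in KO libraries. Again the groups did not overlap. Its log2 fold change was 0.43 (SE 0.11), with adjusted p-values of 0.00546 in DESeq2 and 0.0737 in edgeR, and DESeq2 gave 0.0640 without control 1, 0.155 without KO 1 and 0.102 without KO 2. With the term for the libraries numbered 4, edgeR gave Gab1 an adjusted p of 0.0159, and Slc38a4 one of 0.00855.

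Among the 25 genes of imprint setting and reading (DNA methyltransferases, TET enzymes, ZFP57 and its partners, Polycomb subunits and others), 23 were tested and 1 was called, or 4.35%, near the 3.9% of all genes. Tet3, an enzyme that oxidises methylated cytosine, had normalized counts of 3348, 5081, 2905 and 4077 in controls and of 6301, 6432 and 6807 in KO libraries. All KO libraries lay above the highest control. Tet3 had a log2 fold change of 0.76 (SE 0.18) and adjusted p-values of 0.00141 in DESeq2 and 0.0877 in edgeR, and DESeq2 gave 0.218 without both libraries numbered 4. With the term for these libraries the adjusted p of Tet3 was 7.58e-05 in DESeq2 and 0.0453 in edgeR. No measurement of DNA methylation was used here.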

How the data were processed

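RNA sequencing of sorted alpha cells from 4 control and 3 KO samples was deposited by the authors as raw counts, 1 column for each sample. The submitters' processing notes name FastQC, STAR, featureCounts, DESeq2 and the mm10 build without versions; the counting's strand setting is not given in the sources used here. Between 84.4% and 88.9% of counts from 1 to 10 were even, so low counts were not numbers of independent observations. There were no molecular identifiers, and the floor of 3 counts allows for neither point. Depth was 45483504 to 72456557 counts. All 55536 gene identifiers matched GENCODE M21 on GRCm38, which gave positions and exon lengths.

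KO was compared with control over the whole table in R 4.3.3 by DESeq2 1.42.0, the tool that the series' design text names. Its Wald test was run with default size factors and filters and without covariates, p-values were adjusted by Benjamini-Hochberg, and the threshold was 0.05. As the first alternative, edgeR 4.0.16 was run with TMM factors and its quasi-likelihood test. Other filters, scaling to totals, leaving out libraries, a term for the libraries numbered 4 and replicate blocks by label number and by column number were tried too. On data simulated from these libraries the share of false calls was well above the threshold with DESeq2 and below it with edgeR. A call by DESeq2 alone is therefore weaker than its adjusted p states. Whether either tool would find differences as small as those of most imprinted genes was not tested. Values after ± are SD. Sequences came from RefSeq tables on GRCm38.p6.

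The imprinted genes and all lists were chosen with earlier results of these data known. All 36 genes are named, with values in every library for those past the threshold, without overlap of the groups, among the 10 most abundant per kilobase, or listed as nuclear or antisense. Of the further lists, genes past the DESeq2 threshold are named. Columns were matched to samples by their titles, and the KO column numbered 4 counts as an unnumbered KO library.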

Additional observations from a re-analysis of the deposited data

Results flagged for a closer look

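In each group of 4 controls, the gap between an extreme library and its nearest neighbour was compared with the whole range, for 33 imprinted genes with enough counts. By chance 1.65 of 33 genes would pass Dixon's 95% limit for 4 samples, and 3 did. Rtl1 had 1105 normalized counts in control 4, far above the other controls (gap 0.977 of the range). Snrpn was lowest in control 4 at 779 normalized counts, with the other controls between 1010 and 1034 (gap 0.905). Igf2r was lowest in control 3 at 9198 normalized counts, with the other controls between 10218 and 10412 (gap 0.840).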

How the results depend on the processing

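DESeq2 called 769 genes over the whole table. The count was 203 with edgeR, 317 with edgeR and a block of 3 numbered pairs, 1371 with a term for control 4 and the unnumbered KO library, and 430 (without KO 1) to 891 when 1 library was left out. Of the imprinted genes, 1 (Plagl1) was called, and it was called under every alternative run. The count was 2 with at least 10 counts required in 3 libraries (with Inpp5f), 2 with scaling to library totals (with Peg13), 2 without both libraries numbered 4 (with Zim1), 5 with a term for them, 4 with a block of 3 numbered pairs, and 1 to 3 when 1 library was left out. Leaving out control 2 gave 3 (with Peg13 and Zim1) and leaving out control 4 gave 2 (with Zim1). Of the further imprinted genes and imprint regulators 3 were called. The count was 1 with edgeR, 1 with edgeR and the block of 3 pairs, 7 with scaling to totals, 5 without both libraries numbered 4 and 5 with a term for them.

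Samples share the label numbers 1 and 2, and their deviations from the group means correlated at 0.231 for number 1 and 0.301 for number 2 over 14570 genes, while KO 2 correlated at 0.407 with control 3. By column number, control 4 and the unnumbered KO library are a further pair, which correlated at 0.482. With a replicate block by label number on the 4 libraries labelled 1 and 2, DESeq2 called 3 imprinted genes (Plagl1, Zim1 and Meg3, which was lower), against 2 without the block on the same 4. The share of all genes called in either fit is not given here, so these counts cannot be set against a background. The block by label number was not run in edgeR.

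Over 32 imprinted genes and 20 alternatives, 637 log2 fold changes were obtained, of which 59, from 15 genes, had the other sign. None of the 15 was called in the full comparison, and the cause was not tested. Without both libraries numbered 4, Meg3 was -0.21 and Mirg -0.29. With a term for them in DESeq2 and in edgeR, Meg3 was -0.11 and -0.11, Mirg -0.10 and -0.10, Airn -0.022 and -0.023, and Ndn 0.022 and 0.021. With the replicate block and without it on the same libraries, Meg3 was -0.32 and -0.30, Mirg -0.33 and -0.31, Dlk1 -0.088 and -0.094, Airn -0.027 and -0.027, and Zrsr1 -0.020 and -0.026. Grb10 was -0.0011 with the block. With the block of 3 numbered pairs, added after the data were seen, in DESeq2 and in edgeR, Meg3 was -0.17 and -0.18, Mirg -0.11 and -0.12, Igf2r -0.029 and -0.035, Airn -0.090 and -0.096, and Ndn 0.029 and 0.023. Scaled to totals, Rian was 0.036, Ndn 0.062 and Zdbf2 0.011. Leaving out 1 library at a time gave ranges of -0.51 to 0.35 for Meg3, -0.33 to 0.089 for Rian, -0.43 to 0.34 for Mirg, -0.063 to 0.37 for Peg10, -0.079 to 0.14 for Igf2r, -0.30 to 0.39 for Airn, -0.29 to 0.95 for Kcnq1ot1, -0.093 to 0.46 for Cdkn1c, -0.084 to 0.19 for Grb10, -0.12 to 0.16 for Snrpn, -0.21 to 0.11 for Ndn, -0.050 to 0.12 for Zrsr1 and -0.046 to 0.081 for Trappc9. The number of libraries and, for H19, Phlda2, Mkrn3, Igf2 and Magel2, the depth limit what these data can show.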
